A study of Mus musculus with 3 samples.

Results

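The mitochondrial genome encodes 13 proteins, and 10 of their transcripts are described here: mt-Nd1, mt-Nd2, mt-Nd3, mt-Nd4 and mt-Nd5 (complex I), mt-Cytb (complex III), mt-Co1, mt-Co2 and mt-Co3 (complex IV) and mt-Atp6 (ATP synthase). They were taken by symbol, whatever their values, and are 10 of the 31053 genes in each count table. The other 3 protein-coding transcripts, mt-Nd4l, mt-Nd6 and mt-Atp8, are given beside them. The cells are C57BL/6 mouse bone marrow enriched for the receptor Kit and made into droplet single-cell libraries with the 10x Genomics 3′ kit, version 2. There are 3 libraries with 1 library in each group: unchallenged mice at steady state, mice challenged once with Escherichia coli (labelled 24 h) and rechallenged mice, which had 2 E. coli challenges (labelled 48 h). How often mice were challenged and the labelled time differ together between these groups and cannot be told apart, and the labels say neither from what moment the hours count nor whether animals were pooled. Groups follow the labels of the single samples, although the source label names bone marrow neutrophils and the design text speaks of 2 samples with a different treatment.

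Mitochondrial DNA is a small circle that is copied and transcribed inside the organelle by its own polymerases. Its strands are transcribed as long precursors that are cut at tRNA sequences into single messages, most of which receive a short poly(A) tail, the feature that lets oligo-dT based libraries catch them. The proteins made from them are core subunits of the respiratory chain and ATP synthase, which need many further subunits encoded in the nucleus. In single-cell work the share of a cell's transcripts that is mitochondrial is also read as a sign of damaged cells, because cytoplasmic RNA can leak while mitochondria are retained.

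The ends of the messages are shown because the 3′ kit counts molecules at their poly(A) ends, and because 3 members have no complete stop codon in the DNA. The last 30 bases of 8 annotated transcripts follow 5′ to 3′, from GENCODE release M21 on GRCm38, with the bases of the stop codon in capitals. All 8 lie on the + strand of the mitochondrial chromosome, as single-exon genes without introns.
mt-Nd1, chrM:2751-3707: tttacagcgggagtaccaccatacataTAG
mt-Co1, chrM:5328-6872: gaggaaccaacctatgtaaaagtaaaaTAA
mt-Co2, chrM:7013-7696: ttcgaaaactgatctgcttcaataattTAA
mt-Atp6, chrM:7927-8607: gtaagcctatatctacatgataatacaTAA
mt-Co3, chrM:8607-9390: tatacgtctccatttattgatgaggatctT
mt-Nd3, chrM:9459-9806: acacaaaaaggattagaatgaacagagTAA
mt-Nd5, chrM:11742-13565: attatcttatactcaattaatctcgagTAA
mt-Cytb, chrM:14145-15288: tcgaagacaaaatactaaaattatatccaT
The annotated mt-Co3 and mt-Cytb sequences end in a single T, as does mt-Nd4 (chrM:10167-11544), so that 2 bases of the stop codon are missing from each and are supplied by the poly(A) tail. Neighbouring genes also overlap in the annotation. The start of mt-Atp6 lies within mt-Atp8 over 43 bases (chrM:7927-7969), printed here with the start codon of mt-Atp6 and the stop codon of mt-Atp8 in capitals.
mt-Atp8 and mt-Atp6 overlap: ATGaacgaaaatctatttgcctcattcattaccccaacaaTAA
mt-Nd4l and mt-Nd4 overlap by 7 bases (chrM:10167-10173). Counts of mt-Atp8 and mt-Nd4l are therefore uncertain where the counting could split reads between overlapping genes, and mt-Nd6, on the opposite strand, overlaps the end of mt-Nd5. Copies of mitochondrial sequence also lie in the nuclear genome: 654 of the 654 stretches of 31 bases in mt-Co2 and 753 of 754 in mt-Co3 occur in annotated transcripts outside the mitochondrial chromosome, against 0 of 927 in mt-Nd1. None of the 21 genes with such transcripts has a row in the count tables.

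The tables hold 9684 barcodes (unchallenged), 9060 (challenged once) and 8923 (rechallenged), each with at least 500 unique molecular identifiers (UMIs, 1 per captured molecule), with medians of 10737, 12529.5 and 10049 UMIs per cell in that order. Pairs of libraries share 103 to 125 barcodes, and Scrublet marked 2.97% to 4.23% of barcodes as doublets. Kit, used for the enrichment, averaged 33.7, 40.9 and 44.4 counts per 1000000 UMIs (CPM), with at least 1 UMI in 25.7%, 34.8% and 29.5% of cells. Clusters of cells were named from marker transcripts alone, and 12 classes had at least 50 cells in every library. Among them, hematopoietic stem and progenitor (HSPC)-like cells carried Kit at 103, 67.9 and 125 CPM and immature neutrophil-like cells at 11.2, 9.67 and 6.64 CPM. The immature neutrophil-like class held 3378, 1058 and 1409 cells, so many cells without strong Kit transcript were present after enrichment. All folds below compare 1 library with 1 library. No test was possible, cells of a library and transcripts of a single chromosome are not replicates, and the exact 95% intervals cover counting error only.

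Together the 10 transcripts made up 2.40% of all UMIs in the unchallenged library, 2.85% in the library challenged once and 4.17% in the rechallenged library. The exact Clopper-Pearson intervals were 2.401% to 2.407%, 2.846% to 2.851% and 4.163% to 4.171%. The rechallenged library thus stood 1.73-fold above the unchallenged library and 1.46-fold above the library challenged once, which itself stood 1.18-fold above the unchallenged one. With barcodes over a 10% mitochondrial share left out, the shares were 2.22% (9228 cells), 2.64% (8654 cells) and 4.01% (8616 cells), and the corresponding folds were 1.80, 1.52 and 1.19. Such sums over a library cannot tell a different mix of cell types from a different amount of RNA per cell.

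Of the 10 members, 10 were at least 1.5-fold higher in the rechallenged than in the unchallenged library on the log2 scale after adding 10 CPM. Over all 12036 genes tested in that pair, 2.23% were at least 1.5-fold higher and 3.95% at least 1.5-fold lower. Rechallenged over challenged once, 4 of the 10 members passed 1.5-fold higher (all genes: 1.47% higher and 8.39% lower). Challenged once over unchallenged, 0 of the 10 did (all genes: 1.91% higher and 1.52% lower). No member was 1.5-fold lower in any of the 3 comparisons. The median member log2 ratio was 0.78, 0.49 and 0.27 in the same order, beside medians of -0.02, -0.08 and 0.07 over all genes tested. Scaling the libraries by the median of ratios in place of total UMIs shifts them by 0.04, 0.22 and -0.18 on the log2 scale. The shift comes before the 10 CPM are added, so genes of low level move by less. Under this scaling 10, 8 and 0 members passed, beside 2.63%, 3.04% and 0.603% of all genes higher.

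The complex I members code for membrane-arm subunits of NADH dehydrogenase. mt-Nd1 stood at 2236 CPM in unchallenged, 2937 CPM in once-challenged and 3504 CPM in rechallenged cells. The rechallenged library was 1.57-fold above the unchallenged and 1.19-fold above the once-challenged library, the smallest fold of any member in the second of these comparisons. mt-Nd2 gave 637, 785 and 1131 CPM in the same library order, 1.78-fold higher in rechallenged than in unchallenged cells. For mt-Nd4 the levels were 1297, 1557 and 2151 CPM, a rechallenged-to-unchallenged fold of 1.66. These 3 transcripts were graded over the libraries, lowest without challenge and highest after 2 challenges. All 10 members had this order in sums over all cells, with folds of challenged once over unchallenged from 1.05 to 1.31. The mix of cells differed between these libraries: immature neutrophil-like cells, low in mitochondrial share, were 34.9% of unchallenged and 11.7% of once-challenged barcodes. Within the 12 classes the summed share was higher in once-challenged than in unchallenged cells in 8 and lower in 4, with a median fold of 1.04.

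mt-Nd3 and mt-Nd5 differed less between the once-challenged and unchallenged libraries than the other complex I members did. mt-Nd3 was at 270.4, 285 and 549.7 CPM in the unchallenged, once-challenged and rechallenged libraries. Its folds were 2.03 for rechallenged over unchallenged, 1.93 for rechallenged over challenged once and 1.06 for challenged once over unchallenged. mt-Nd5 was at 115, 129 and 225 CPM, with a rechallenged-to-unchallenged fold of 1.97 and exact Poisson intervals of 222.3 to 228.3 CPM in rechallenged against 112.7 to 116.6 CPM in unchallenged cells. Even for this member the counting error was small beside the difference. mt-Nd4l was at 41.2, 44.1 and 79.8 CPM, and its rechallenged value was 1.94-fold the unchallenged one. mt-Nd6 is the single protein-coding message of the opposite strand, and its 5.25, 7.27 and 9.04 CPM gave a fold of 1.72 that was under 1.5 once 10 CPM were added.

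mt-Cytb, the cytochrome b of complex III, gave 2296, 2785 and 3465 CPM over the unchallenged, once-challenged and rechallenged libraries. Its fold of 1.51 for rechallenged over unchallenged was the smallest of the 10 members in that comparison. mt-Atp6, which forms part of the proton path of ATP synthase, gave 5658, 6886 and 9454 CPM, a fold of 1.67. mt-Atp8, the overlapping partner of mt-Atp6, was at 20.2, 20.01 and 36.3 CPM.

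The complex IV members are the catalytic core of cytochrome c oxidase. mt-Co1, its largest subunit, stood at 4062 CPM in unchallenged, 4284 CPM in once-challenged and 8594 CPM in rechallenged cells. It had the largest fold of any member for rechallenged over unchallenged (2.12) and for rechallenged over challenged once (2.01), and the smallest for challenged once over unchallenged (1.05). mt-Co2 gave 2180.4, 2745 and 4276 CPM, with corresponding folds of 1.96, 1.56 and 1.26. mt-Co3 gave 5288, 6093 and 8323 CPM, 1.57-fold higher in rechallenged than in unchallenged cells. The members that passed 1.5-fold for rechallenged over challenged once were mt-Co1, mt-Nd3, mt-Nd5 (1.74-fold) and mt-Co2, so they were not those of 1 complex. In the plot of the 13 transcripts by library, this difference is the distance between the once-challenged and rechallenged points of a gene.

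**Figure D1:**
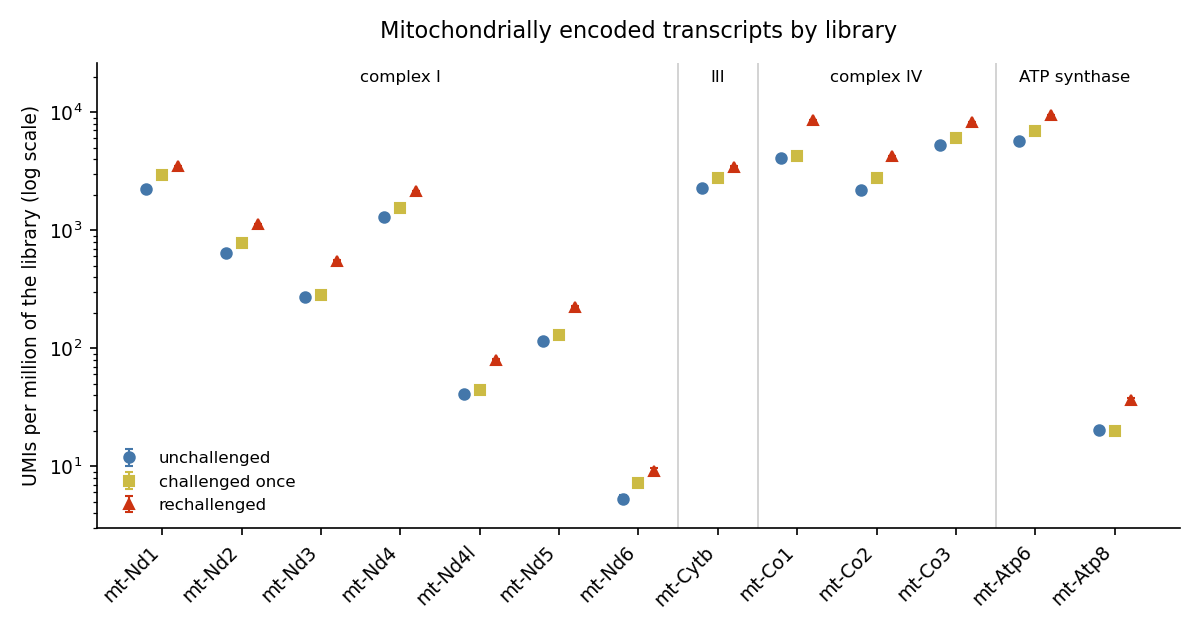
Level of the 13 mitochondrially encoded protein-coding transcripts (y axis, CPM, log scale) in the 3 libraries, grouped by complex, with bars for exact Poisson 95% intervals, which are mostly smaller than the points. All 10 members were highest in the rechallenged library, and mt-Co1 and mt-Nd3 lay nearly as low in the library challenged once as in the unchallenged library.

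The difference was also seen in the middle of the distribution over cells. The median share per cell was 2.16% in the unchallenged, 2.62% in the once-challenged and 4.12% in the rechallenged library, and the middle 50% of cells lay at 0.920% to 2.98%, 2.01% to 3.13% and 2.99% to 4.92%. The range of the rechallenged library began just above the end of that of the unchallenged library. The unchallenged library also had a separate peak at low shares, where its immature neutrophil-like cells lay (median 0.94%). This class made up 34.9% of unchallenged, 11.7% of once-challenged and 15.8% of rechallenged barcodes, so the quartiles of a library also depend on its mix of cells. Shares above 5% were found in 22.8% of rechallenged barcodes (2033), against 6.89% of once-challenged (624) and 7.27% of unchallenged barcodes (704). At the upper end the order was another: the 95th percentile was 8.98% in unchallenged, 7.99% in once-challenged and 7.72% in rechallenged cells. mt-Co1 had at least 1 UMI in 99.4% to 99.5% of cells of each library, whereas mt-Nd5 was seen in 57.6% of unchallenged, 65.9% of once-challenged and 73.0% of rechallenged cells.

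**Figure D2:**
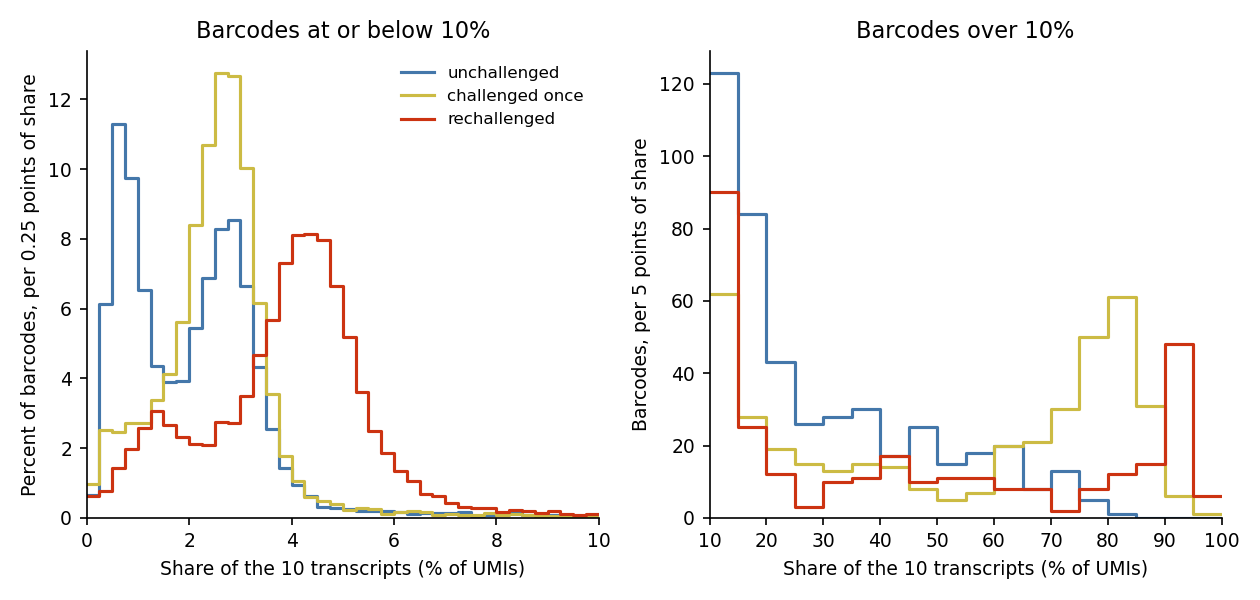
Distribution of the mitochondrial share of UMIs per barcode in the 3 libraries, as the percent of barcodes in each 0.25 point of share up to 10% (left) and as the number of barcodes per 5 points above 10% (right). The rechallenged cells centre on a median of 4.12%, against 2.62% for the once-challenged and 2.16% for the unchallenged cells, and the libraries keep 307, 406 and 456 barcodes above 10%, in the same order.

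The library difference also stood within the classes of cells. Rechallenged over unchallenged, the share of UMIs was above 1-fold in 12 of 12 classes and at least 1.5-fold in 9. Rechallenged over challenged once, it was above 1-fold in 12 of 12 and at least 1.5-fold in 10. Challenged once over unchallenged, it was higher in 8 classes and lower in 4, and at least 1.5-fold different in 0. With the 10% limit the counts at 1.5-fold were 9, 8 and 0. Over the 120 combinations of member and class, 85 passed 1.5-fold higher for rechallenged over unchallenged, 76 for rechallenged over challenged once and 4 for challenged once over unchallenged, and none passed lower. Over all combinations of gene and class tested, 3.52%, 2.92% and 1.67% were higher and 10.3%, 11.4% and 1.13% lower in the same order. The classes were not matched in their finer make-up. At Leiden resolution 2, HSPC-like clusters held 467, 640 and 39 cells, 310, 482 and 23 cells, and 28, 29 and 654 cells of the unchallenged, once-challenged and rechallenged libraries. Monocyte-like clusters held 657, 706 and 36 cells and 19, 35 and 1090 cells.

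In HSPC-like cells (621, 996 and 701 cells) the 10 transcripts made up 3.08% of UMIs in unchallenged, 3.01% in once-challenged and 4.75% in rechallenged cells. Rechallenged HSPC-like cells were thus 1.54-fold above unchallenged and 1.58-fold above once-challenged ones, while the fold of challenged once over unchallenged was 0.976. Medians per cell were 2.99%, 2.96% and 4.69%. Passing 1.5-fold higher were 7 of the 10 members for rechallenged over unchallenged (all genes: 1.89% higher, 10.7% lower), 6 for rechallenged over challenged once (1.93% higher, 10.5% lower) and 0 for challenged once over unchallenged (0.843% higher, 1.59% lower). The median member log2 ratio was 0.71, 0.64 and -0.01, beside -0.16, -0.12 and -0.02 over all genes tested.

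mt-Co1 in HSPC-like cells stood at 5970 CPM in unchallenged, 4413 CPM in once-challenged and 9889 CPM in rechallenged cells. Its fold was 2.24 for rechallenged over challenged once, the largest of the members in these cells, and 0.739 for challenged once over unchallenged, the smallest. mt-Nd1 moved otherwise, with 2144 CPM in unchallenged, 2859 CPM in once-challenged and 3521 CPM in rechallenged HSPC-like cells. mt-Nd3 gave 354, 339 and 721 CPM over the same libraries, a fold of 2.03 for rechallenged over unchallenged. At the other end of that comparison was mt-Co3 with 6728, 6397 and 9546 CPM and a fold of 1.42.

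Neutrophil progenitor-like cells (860, 1668 and 2023 cells) gave 3.53% in unchallenged, 2.82% in once-challenged and 4.50% in rechallenged cells. Here the library challenged once lay below the unchallenged one, at 0.798-fold, and the rechallenged library was 1.27-fold above unchallenged and 1.60-fold above challenged once. The class joins 2 clusters in unlike parts, with 598, 719 and 1550 cells in one and 262, 949 and 473 in the other, which had no own marker among its 10 leading genes. In each of the 2 clusters the once-challenged share was the lowest. The members past 1.5-fold higher were 3 for rechallenged over unchallenged (all genes: 1.79% higher, 5.17% lower), 7 for rechallenged over challenged once (1.37% higher, 9.29% lower) and 0 for challenged once over unchallenged (2.31% higher, 1.36% lower). mt-Co1 gave 5326, 4141 and 8799 CPM over the unchallenged, once-challenged and rechallenged libraries. mt-Cytb gave 3662, 2824 and 3792 CPM, so that rechallenged progenitors stood only 1.04-fold above unchallenged ones for this transcript. Monocyte-like cells had the same order of libraries as the neutrophil progenitors, with 3.70%, 2.996% and 4.63%. With the 10% limit the order stayed, at 3.23%, 2.90% and 4.58% in monocyte-like and 3.31%, 2.73% and 4.44% in neutrophil progenitor-like cells. The fold of challenged once over unchallenged was then 0.899 and 0.825.

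Among the 12 classes, immature and mature neutrophil-like cells carried the lowest shares. A small haemoglobin-led cluster of the erythroid-like class was lower still in once-challenged (0.32%, 10 cells) and rechallenged cells (1.19%, 71 cells), but not in unchallenged cells (1.08%, 4 cells). Immature neutrophil-like cells gave 1.22% in unchallenged, 1.66% in once-challenged and 2.49% in rechallenged cells, and mature neutrophil-like cells gave 0.654%, 0.754% and 1.46%. The rechallenged cells were 2.05-fold above the unchallenged in the immature and 2.23-fold in the mature class, the largest folds of the 12 classes. Along 6 clusters of the progenitor, immature and mature classes, listed by falling unchallenged share within a class, the unchallenged share stepped down through 3.59% and 3.37% (progenitors), 2.01%, 1.06% and 0.80% (immature) to 0.65% (mature). The same clusters gave 3.01%, 2.69%, 2.18%, 1.42%, 1.08% and 0.83% in once-challenged and 4.56%, 4.34%, 3.15%, 2.05%, 1.84% and 1.38% in rechallenged cells. In these 6 clusters each library was lowest in the mature one, and the rechallenged value was the highest of the 3 libraries in each. The immature and mature classes were not made of the same clusters in all libraries: 1 immature cluster held 1683, 560 and 52 cells, another 33, 21 and 683 cells, and 1 mature cluster held 3, 289 and 449 cells of the unchallenged, once-challenged and rechallenged libraries. The last 2 of these are outside the 6 clusters and were at 1.95% (immature) and 1.63% (mature) in rechallenged cells, the mature one above the 1.38% of the other mature cluster.

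The other named classes had rechallenged shares of 3.80% to 6.28%. B lineage-like cells gave 2.55%, 2.57% and 4.90% in unchallenged, once-challenged and rechallenged cells, a fold of 1.92 for rechallenged over unchallenged. One of its clusters was nearly missing from the rechallenged library, with 644, 947 and 11 cells. Erythroid-like cells gave 2.80%, 2.86% and 4.57%, and megakaryocyte-like cells 2.46%, 2.58% and 4.21%. The megakaryocyte name is uncertain, since 59.4% of its 1342 cells held a UMI of an own marker. In a finer clustering (Leiden resolution 2) 538 cells carried the name. Basophil or mast cell-like cells gave 2.62%, 2.77% and 4.05%. The class named from dendritic markers gave 2.63%, 2.80% and 4.54%, but 872 of its cells were in a cluster led by Cox6a2, Ly6d, Dntt and Flt3, with 1 dendritic marker among its 10 leading genes, so the name is uncertain. In these 5 classes the once-challenged and unchallenged shares lay within 1.07-fold of each other. T, NK or innate lymphoid-like cells gave 2.57%, 2.49% and 3.80%. Macrophage-like cells gave 3.39%, 4.11% and 6.28%, but from 111, 122 and 60 barcodes with medians of only 863, 890.5 and 876.5 UMIs and with the neutrophil granule transcript Camp at 34560, 10835 and 7816 CPM. With the 10% limit they gave 2.40%, 3.27% and 4.82%.

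**Figure D3:**
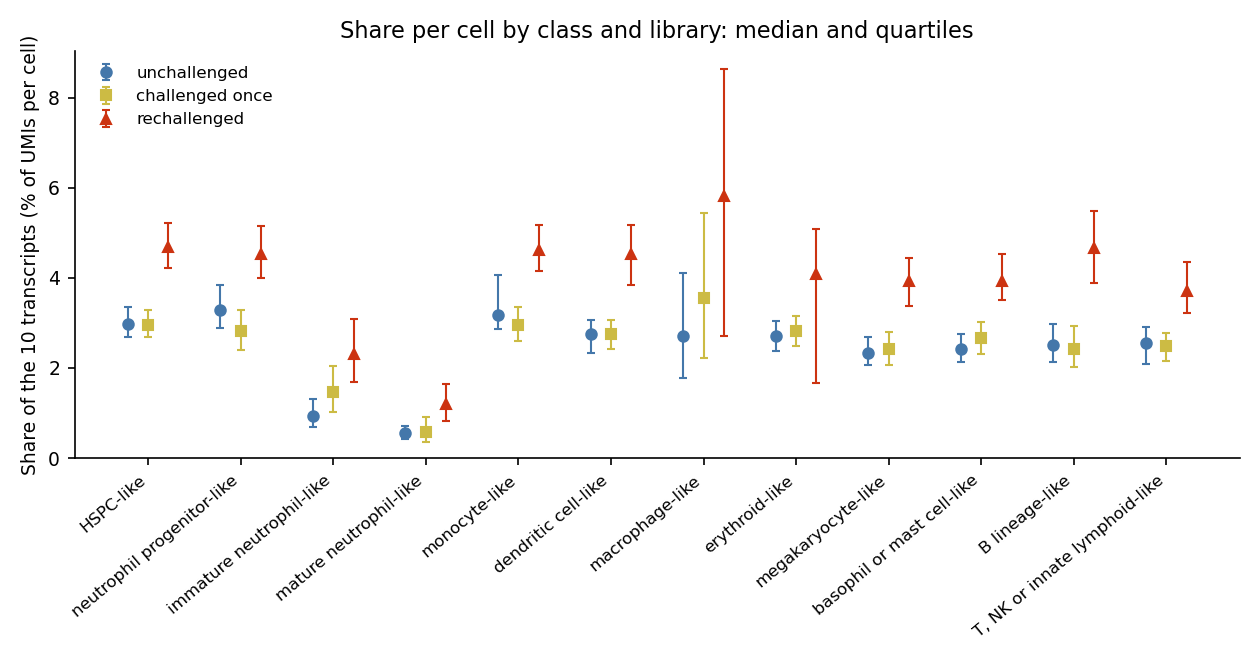
Mitochondrial share of UMIs per cell (percent, 10 transcripts) in 12 classes of cells and 3 libraries, as medians with bars from the first to the third quartile. The quartile range of rechallenged cells lay wholly above that of unchallenged cells in 10 of the 12 classes. It lay wholly above that of once-challenged cells in 8. These quartiles describe spread among cells within a library, not between animals, and the same count was not made for other transcripts. Neutrophils lay lowest in every library.

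A share can differ through its mitochondrial part or through the rest of the cell's UMIs, and each was counted. In HSPC-like cells the median number of mitochondrial UMIs was 260 in unchallenged, 397 in once-challenged and 438 in rechallenged cells, beside 7917, 12995.5 and 8713 UMIs of other genes. Neutrophil progenitor-like cells held 604.5, 716 and 670 mitochondrial UMIs, beside 17044.5, 25667.5 and 13965 other UMIs. Immature neutrophil-like cells held 104, 140.5 and 236, beside 11516, 10838 and 9901. Across the 12 classes the mitochondrial median was higher in rechallenged than in unchallenged cells in 8 and higher than in once-challenged cells in 7. The median of the other UMIs was lower in rechallenged than in unchallenged cells in 11 classes, and lower than in once-challenged cells in 11.

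Some classes had fewer mitochondrial UMIs per cell but a higher share after rechallenge. Erythroid-like cells held 668 mitochondrial UMIs in rechallenged against 874 in unchallenged cells, and 12625.5 against 30030.5 other UMIs. This class includes a haemoglobin-led cluster with 71 rechallenged and 4 unchallenged cells. In the largest erythroid cluster the values were 829.5 against 897 mitochondrial UMIs and 16157 against 30320.5 others. B lineage-like cells held 69 against 97 mitochondrial UMIs and 1317.5 against 3427 others. UMIs per cell depend on sequencing depth and capture as well as on RNA content, and these cannot be told apart here. At matched depth the rechallenged median was again the highest in HSPC-like cells: those with 5000 to 10000 UMIs had median shares of 2.98% in unchallenged, 2.99% in once-challenged and 4.80% in rechallenged cells. Those with 10000 to 20000 UMIs had 2.88%, 2.92% and 4.51%. Over the depth bins of the 12 classes with at least 20 cells in both libraries, rechallenged was higher than unchallenged in 31 of 36 and higher than challenged once in 35 of 38. The 5 bins that ran the other way against unchallenged cells were of neutrophil progenitor-like, monocyte-like and B lineage-like cells with under 10000 UMIs, such as 9.24% in rechallenged against 16.95% in unchallenged progenitors with 2000 to 5000 UMIs.

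**Figure D4:**
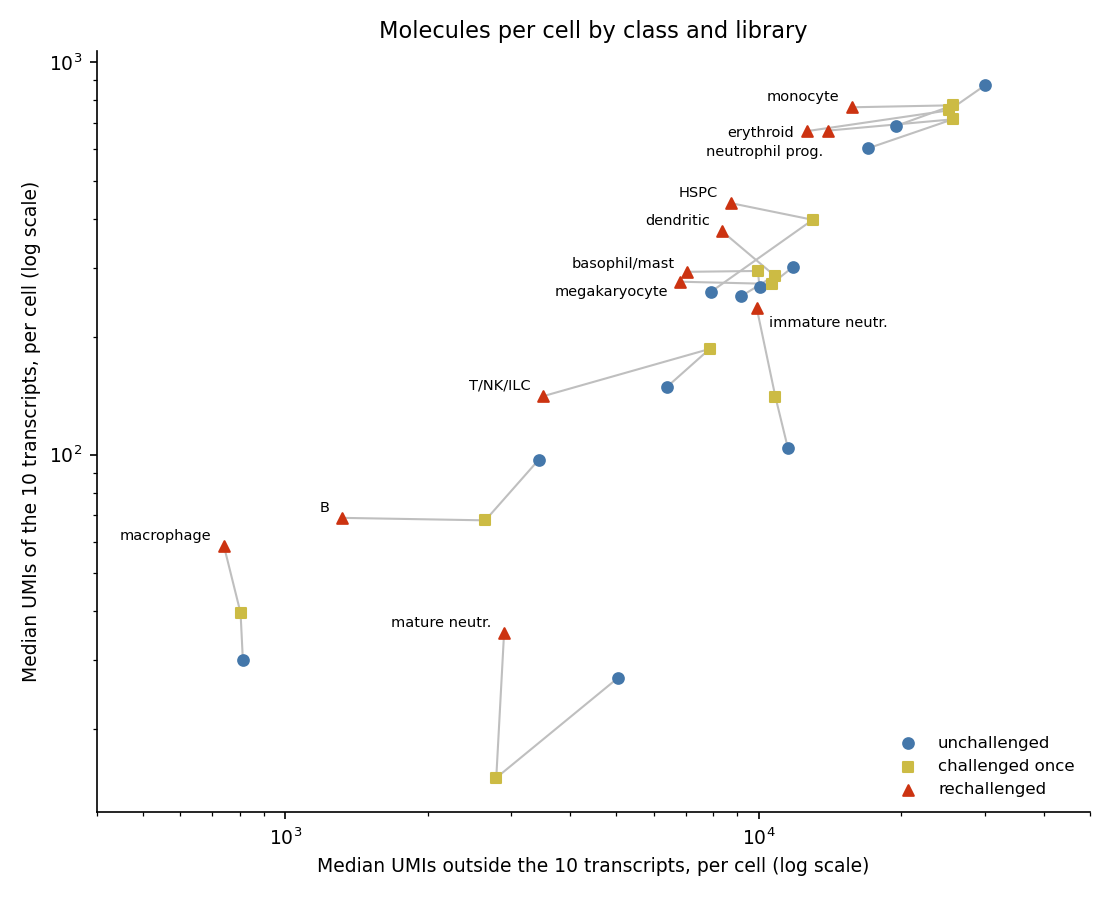
Median mitochondrial UMIs per cell (y axis, log scale) against median UMIs of all other genes per cell (x axis, log scale) for 12 classes, with a line joining the unchallenged, once-challenged and rechallenged point of a class. HSPC-like cells lie at 260, 397 and 438 mitochondrial UMIs, and in 11 of the 12 classes the rechallenged point is left of the unchallenged point.

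The mix of the 10 transcripts differed as well. mt-Co1 took 16.9% of their UMIs in the unchallenged, 15.04% in the once-challenged and 20.6% in the rechallenged library. mt-Nd1 took 9.30%, 10.3% and 8.41%, and mt-Co2 took 9.07%, 9.64% and 10.3%. Grouped by complex, the complex IV transcripts held 48.0%, 46.1% and 50.9%, complex I held 18.9%, 19.99% and 18.1%, mt-Cytb 9.55%, 9.78% and 8.31%, and mt-Atp6 23.5%, 24.2% and 22.7%. For rechallenged against unchallenged, 5.24 percentage points of the mix had changed hands between transcripts. For rechallenged against challenged once it was 6.62 points and for challenged once against unchallenged 2.61 points.

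This shift recurred in the classes. The mt-Co1 part of the mix was larger in rechallenged than in unchallenged cells in 12 of 12 classes and larger than in once-challenged cells in 12 of 12. The mt-Co2 part was larger in 12 and 11 classes, and that of mt-Nd3 in 11 and 12. The parts of mt-Co3 and mt-Cytb were smaller in rechallenged than in unchallenged cells in 12 of 12 classes each, that of mt-Atp6 in 11 and that of mt-Nd1 in 10. Since the parts add up to the whole mix, a larger part of 1 transcript makes others smaller. In HSPC-like cells mt-Co1 took 19.4% in unchallenged, 14.7% in once-challenged and 20.8% in rechallenged cells, whereas mt-Nd1 took 6.95%, 9.50% and 7.42%.

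The mix also varied between types of cell. Mature neutrophil-like cells had the largest mt-Co1 part, 27.6%, 29.5% and 36.5% in the unchallenged, once-challenged and rechallenged libraries, and the smallest mt-Nd1 part, 5.60%, 4.56% and 3.62%. Erythroid-like cells were at the other end, with mt-Co1 at 13.8%, 13.6% and 16.1% and mt-Nd1 at 11.8%, 11.4% and 11.6%. mt-Co1 and mt-Nd1 were thus ordered oppositely at the ends of the class range in each library. The mix also followed the share of the cell: in cells under 1% mitochondrial mt-Co1 took 29.1%, 28.1% and 40.7%, and in those over 50% it took 11.7%, 11.8% and 17.0%. These bins pool all classes. Unchallenged immature and mature neutrophil-like cells had median shares of 0.94% and 0.55% and mt-Co1 parts of 23.1% and 27.6%. Share and cell type therefore cannot be told apart in the bins.

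**Figure D5:**
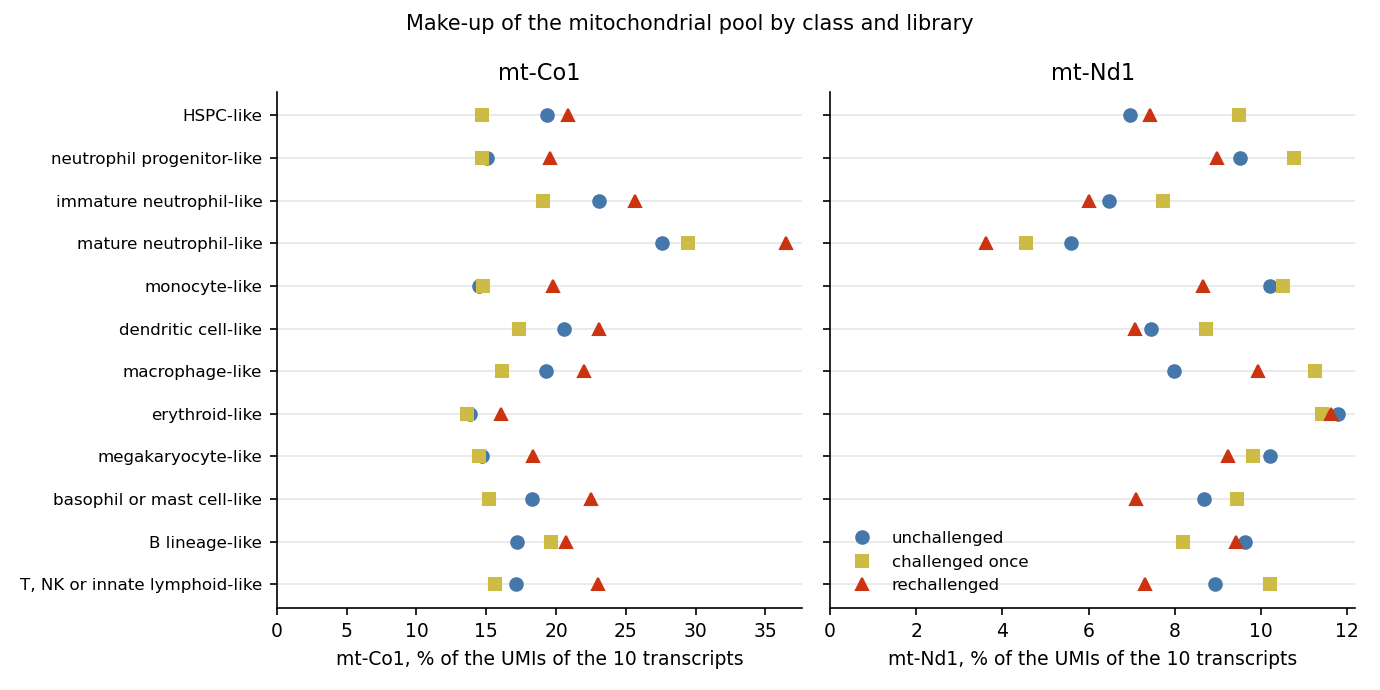
Part of the UMIs of the 10 transcripts taken by mt-Co1 and by mt-Nd1 (percent) in 12 classes and 3 libraries. mt-Co1 was largest in rechallenged cells in 12 of 12 classes and reached 36.5% in rechallenged mature neutrophil-like cells, where mt-Nd1 was at 3.62%.

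Barcodes with more than 10% mitochondrial UMIs numbered 456 (4.71%) in the unchallenged, 406 (4.48%) in the once-challenged and 307 (3.44%) in the rechallenged library. They were shallow, with medians of 1382, 1119 and 1088 UMIs, and held 8.41%, 7.78% and 4.25% of the mitochondrial UMIs of their library. The limit cuts a continuous range: 27, 16 and 44 barcodes lay at 9% to 10% and 29, 17 and 22 at 10% to 11%. Among barcodes with 500 to 1000 UMIs, 46.6%, 46.3% and 36.7% were over the limit, and among those with at least 20000 UMIs 0 were in any library. By class, monocyte-like cells over the limit were 101 of 670 in the unchallenged, 22 of 708 in the once-challenged and 22 of 974 in the rechallenged library. Neutrophil progenitor-like cells gave 7.91%, 3.30% and 1.93%. The opposite order of libraries appeared in erythroid-like cells, with 1.35%, 1.37% and 5.29%.

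More extreme barcodes were distributed otherwise. Over 50% mitochondrial were 80 barcodes in the unchallenged, 232 in the once-challenged and 129 in the rechallenged library, and over 80% were 1, 99 and 81. Many fell into 1 cluster that stayed unnamed, with 218, 274 and 162 barcodes, median shares of 40.9%, 76.3% and 78.7% and medians of 781, 982 and 840 UMIs. Eosinophil granule genes such as Prg2 and Epx led it, but only 6.42% of its barcodes held a UMI of any eosinophil marker, and these were 25 of the 111 barcodes under the limit against 17 of the 543 over it. Even in the barcodes of this cluster over the limit, mt-Co1 was 12.5%, 11.9% and 16.7% of the mix, highest in the rechallenged library as elsewhere.

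Most proteins that build the respiratory chain or serve the mitochondrial genome are nuclear-encoded, and their transcripts were read in the same cells. For rechallenged over challenged once, where 4 of the 10 members were 1.5-fold higher, several of these lists were lower. Mitochondrial ribosomal proteins, which translate the 13 messages, had 0 of 27 genes higher and 10 lower, with a median log2 ratio of -0.51. Import, folding and proteolysis genes had 0 of 17 higher and 8 lower (median -0.55), beside 8.39% of all genes lower. Examples are Mrpl12 of the large mitochondrial ribosomal subunit (125 CPM in rechallenged against 270.5 CPM in once-challenged cells), Tomm40, the import channel (47.3 against 126 CPM), Hspd1, the matrix chaperonin (209 against 455 CPM), and Phb2, a prohibitin of the inner membrane (154 against 349 CPM). Nuclear-encoded respiratory chain and ATP synthase genes had 1 of 30 higher and 6 lower (median -0.22), among them the succinate dehydrogenase subunits Sdhd (91.5 against 177 CPM) and Sdhb (82.8 against 150.6 CPM). Under the median-of-ratios scaling the ribosomal list had 3 lower with a median of -0.31, the import list 4 lower with a median of -0.34 and the respiratory list 3 higher and 2 lower with a median of -0.03.

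Against the unchallenged library the same lists divided otherwise. For challenged once over unchallenged in all cells, 7 of 27 mitochondrial ribosomal genes and 6 of 17 import and folding genes were higher and 0 lower (medians 0.45 and 0.50). Beside them, 1.91% of all genes were higher, and the mix of cell types differs between these libraries. Median-of-ratios scaling left 1 and 4 of them higher. Hspe1, the co-chaperonin of Hspd1, was at 980.5 CPM in once-challenged against 513.7 CPM in unchallenged cells, and Atp5g1, a subunit of the ATP synthase ring, at 955 against 556 CPM. For rechallenged over unchallenged, 0 of 27 and 0 of 17 were higher and 0 and 1 lower (medians -0.07 and -0.15), the one being Tomm40 at 47.3 CPM in rechallenged against 76.2 CPM in unchallenged cells. Nuclear-encoded respiratory chain genes had 4 of 30 higher and 1 lower in that comparison (median 0.13, all genes 2.23% higher), and 6 higher and 0 lower under the median-of-ratios scaling, where the import list had 0 lower. Scaled by total UMIs, the 4 were the complex IV subunits Cox6a1 (788 against 490.0 CPM) and Cox7b (469 against 296 CPM), Ndufa4, now counted with complex IV (995 against 620.3 CPM), and the complex I subunit Ndufa2 (693 against 447 CPM).

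Genes for upkeep and transcription of mitochondrial DNA had 0 of 14 past 1.5-fold for rechallenged over unchallenged (median -0.06) and 0 higher and 2 lower for rechallenged over challenged once (median -0.27, all genes 8.39% lower). The 2 were Tfam, which packages mitochondrial DNA and starts its transcription, and Ssbp1, the single-strand binding protein of its replication. Tfam stood at 39.1 CPM in unchallenged, 50.7 CPM in once-challenged and 24.7 CPM in rechallenged cells, so its order over the libraries was not that of the members. In HSPC-like cells Tfam was at 42.4 CPM in rechallenged against 65.5 CPM in unchallenged cells. Processing and turnover genes of mitochondrial RNA had 0 of 16 past for rechallenged over unchallenged (median -0.11) and 0 higher and 3 lower for rechallenged over challenged once (median -0.41, all genes 8.39% lower). Under the median-of-ratios scaling the upkeep and the processing list each had 1 lower in the second comparison (medians -0.14 and -0.27). For rechallenged over unchallenged the 4 largest log2 ratios of the processing list went both ways and none passed 1.5-fold. Slirp and Lrpprc, which together hold mitochondrial messages stable, were at 184 and 22.5 CPM in rechallenged against 128 and 14.8 CPM in unchallenged cells. Fastk and Trmt10c, a subunit of the mitochondrial RNase P, were at 8.37 and 13.8 CPM in rechallenged against 14.8 and 21.6 CPM in unchallenged cells.

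The regulators of mitochondrial content had 0 of 7 past 1.5-fold in any of the 3 comparisons of all cells. Of the 14 mitophagy and apoptosis genes, 1 was higher and 2 lower for rechallenged over unchallenged, beside 2.23% and 3.95% of all genes, and 1 was higher and 1 lower under the median-of-ratios scaling. The higher one was Mcl1, which keeps cells from apoptosis, at 98.4 CPM in rechallenged against 48.3 CPM in unchallenged cells. The lower ones were Optn, an autophagy receptor (5.42 against 14.8 CPM), and Diablo, which is released from mitochondria in apoptosis (22.2 against 38.6 CPM).

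The lists were also counted in the progenitor classes. For rechallenged over challenged once in HSPC-like cells, 0 of the 27 mitochondrial ribosomal genes were higher and 10 lower (median -0.53), and the respiratory chain genes had 1 higher and 8 lower (median -0.30), beside 1.93% of all genes higher and 10.5% lower in these cells. The higher one was Cox6a1, at 512 CPM in rechallenged against 251 CPM in once-challenged HSPC-like cells. For rechallenged over unchallenged, 3 respiratory chain genes were higher and 0 lower in these cells (median 0.00): Cox6a1 (512 against 157 CPM), Cox7b (388 against 124 CPM) and the complex I subunit Ndufs6 (212 against 111 CPM). In neutrophil progenitor-like cells the ribosomal list had 0 higher and 9 lower for rechallenged over challenged once (median -0.48) and the import list 0 higher and 8 lower (median -0.57), beside 9.29% of all genes lower. Tomm40 there stood at 58.6 CPM in rechallenged against 160 CPM in once-challenged cells. For challenged once over unchallenged, HSPC-like cells had 2 of 27 ribosomal and 1 of 16 import genes higher (medians 0.34 and 0.36, all genes 0.843% higher). Neutrophil progenitor-like cells had 4 of 27 and 7 of 17 higher (medians 0.41 and 0.50, all genes 2.31% higher). In both classes 0 genes of these lists were lower.

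Some other measures moved with the members in part of the classes. Ribosomal protein transcripts, short and abundant messages of the cytosolic ribosome, made up 26.5% of UMIs in the unchallenged, 34.5% in the once-challenged and 37.2% in the rechallenged library. In HSPC-like cells they made up 41.0%, 40.8% and 48.0%, the order of libraries that the mitochondrial share had there. Erythroid-like cells gave 39.8%, 43.0% and 42.2%, and mature neutrophil-like cells 6.17%, 5.64% and 8.26%. In these classes the order of libraries was not that of the mitochondrial share. Over 36 points (12 classes in 3 libraries), the genes most like the summed members, out of 4937, were Rps29, Rps21, Rpl41, Rpl38 and Rpl35a, with Pearson r of 0.92 to 0.93. Rps21, for example, had class medians of 2955, 2735 and 5486 CPM in the unchallenged, once-challenged and rechallenged libraries. The points share libraries and cell types, so these coefficients are descriptions. The members themselves gave r of 0.71 (mt-Nd1 and mt-Co1) to 0.99 (mt-Co3 and mt-Atp6) over the same points, with a median of 0.94 over 45 pairs.

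Markers of handling and of other cells also differed. In all cells 5 of the 13 handling genes (nuclear-retained and immediate early) were higher and 0 lower for rechallenged over unchallenged (median log2 ratio 0.49, all genes 2.23% higher). For rechallenged over challenged once 4 were higher and 3 lower (median 0.08, all genes 1.47% higher and 8.39% lower). Neutrophil and erythrocyte transcripts that mark free RNA summed to 13207 CPM in unchallenged, 1866 CPM in once-challenged and 2210 CPM in rechallenged HSPC-like cells, and the immature neutrophil marker list to 4370.5, 516 and 587 CPM there, with 0 of 9 markers at 0 in any library. The handling genes summed to 11989, 6843 and 7739 CPM in HSPC-like cells, and its nuclear-retained member Malat1 was at 10547, 5973 and 6272 CPM. The immediate early gene Egr1 was at 21.01 CPM in unchallenged, 12.4 CPM in once-challenged and 65.3 CPM in rechallenged HSPC-like cells. The handling list as a whole was mixed there. For rechallenged over unchallenged, 1 of 10 tested genes was higher and 3 lower (all genes: 1.89% higher, 10.7% lower). For rechallenged over challenged once, 5 of 12 were higher and 2 lower (all genes: 1.93% higher, 10.5% lower). The part of these measures in the mitochondrial shares was not tested.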

How the data were processed

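The deposited tables hold raw UMI counts per gene and barcode from 3 single-cell libraries, 1 per group. The authors' tables were checked to hold whole counts only, and no barcode has under 500. Cell Ranger 3.0.0 and mm10 are named in the submitters' processing notes, and the release of its annotation is not given in the sources used here. All values were computed from these counts with Python 3.11.15, numpy 2.4.6, scipy 1.17.1, pandas 2.3.3, scanpy 1.11.5, anndata 0.12.19, scikit-learn 1.9.0, leidenalg 0.10.2 and matplotlib 3.10.9. The members, gene lists and marker lists were chosen with earlier results of these data known.

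Library values use all barcodes with at least 500 UMIs, with no upper mitochondrial limit and again with a limit of 10%. CPM is the UMI count per 1000000 UMIs of the population. Log2 ratios were taken after adding 10 CPM, over genes with at least 100 UMIs in the pair of libraries, and a gene past 1.5-fold is counted as higher or lower. Folds of single members carry no added CPM. With 1 library per group no test was made, and exact 95% intervals (Clopper-Pearson for shares, Poisson for levels) cover counting error only. On simulated counts of 31053 genes for rechallenged over unchallenged, 200 of 200 changed genes of at least 50 CPM came out on the right side.

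For classes, Scrublet calls (expected rate 6%) were left out, and cells were clustered together with 30 principal components, 15 neighbours and 2000 variable genes at Leiden resolution 1 without batch correction. Mitochondrial, ribosomal protein, sex-linked and listed genes took no part in the clustering. Of 23 clusters, those were named that had at least 3 markers at 2-fold. A further condition, that 50% of a cluster's cells hold a UMI of an own marker, was set after values were seen. It left 1 cluster unnamed. Of the named classes, the neutrophil progenitor class includes a cluster led by Calr and Hspa5 with no own marker among its top 10 genes.

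The genes named are all members, mt-Nd4l, mt-Nd6 and mt-Atp8, up to 4 genes of each list described, by absolute log2 ratio, and the 5 genes most like the summed members with at least 20 CPM on average. A gene is also given in the other libraries once it is named. Sequences and positions are those of GENCODE M21 on GRCm38, and the search for copies used stretches of 31 bases. Levels are compared between libraries, not between genes.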

Additional observations from a re-analysis of the deposited data

How the results depend on the processing

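For the summed share, the log2 ratio of challenged once over unchallenged (0.24 as reported) was 0.25 with the 10% limit, 0.21 for cells with at least 1000 UMIs and 500 genes, 0.25 without Scrublet calls, 0.25 per UMIs of other genes, 0.069 with median-of-ratios scaling, 0.27 after thinning to 2000 UMIs per cell, 0.010 with classes weighted equally, 0.21 without the unnamed cluster and 0.24 without barcodes shared between libraries. Rechallenged over unchallenged (0.79) gave, for the same settings up to the unnamed cluster, 0.85, 0.80, 0.80, 0.82, 0.84, 0.81, 0.68 and 0.80. Rechallenged over challenged once (0.55) gave 0.60, 0.59, 0.55, 0.57, 0.77, 0.54, 0.67 and 0.59. The last 2 settings were chosen after seeing the data. Members past 1.5-fold for rechallenged over challenged once were 8, not 4, with median-of-ratios scaling, by construction of its shift. Classes at least 1.5-fold different for challenged once over unchallenged were 1, not 0, at Leiden resolution 2, with Scrublet calls kept, and by the median over cells. With the 10% limit the change in mix was 4.99 points for rechallenged against unchallenged and 6.44 for rechallenged against challenged once. Of 216 alternative class folds 138 moved beyond their counting interval. In B lineage-like cells the fold of challenged once over unchallenged (1.01) kept its direction in 4 of 6 alternatives, and the lowest was 0.968. The other class folds kept their direction in all 6. The HSPC-like fold of rechallenged over unchallenged was 1.48 at resolution 2. The cause of these differences was not tested. No paired analysis was possible because each group has 1 library. Counting error is small at this depth, and the spread between animals or preparations is unknown.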
